A study of Saccharomyces cerevisiae with 9 samples.

Results

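The COS genes of budding yeast, Saccharomyces cerevisiae, are a family of near-copies that lie close to chromosome ends. The 10 described here (COS1 to COS8, COS10 and COS12) were taken by name from the 5928 genes of the table. The family was chosen by its values in Pcf11-13 against wild type, where COS4 stood among the highest genes, so the members' values in that comparison, and in Pcf11-DNL against Pcf11-13, are given as description without tests. Of the 10, 9 passed the filter on low counts, and COS12 did not.

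Cos proteins span the membrane several times and belong to the larger DUP family. They help to gather membrane proteins at the endosome and, by carrying ubiquitin themselves, to send them into multivesicular bodies for breakdown in the vacuole. Because the genes sit beside telomeres, they are known as targets of silencing by Sir2, an enzyme that uses NAD+.

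RNA was sequenced from 9 cultures of strain w303, mating type alpha, whose marker alleles are ade2-1, his3-11,15, ura3-1, trp1-delta and a leu2-3 allele. All groups lack the chromosomal PCF11 gene (pcf11-delta::TRP1), which encodes a subunit of the complex that cleaves pre-mRNA 3' ends and ends transcription, and live on a copy carried by a LEU2 plasmid. The plasmid holds pcf11-13 in Pcf11-13 (no tag is named), an allele written V5-pcf11-deltaN-linkMYC in Pcf11-DNL, and V5-PCF11-MYC in wild type, with 3 biological replicates in each group. All 9 libraries carry the treatment label glucose, although the growth text also mentions caffeine. The genotype labels name the plasmid pRS325 and the descriptions call it low copy and centromeric, and its copy number in each strain was not analysed here.

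Library totals lay between 11372819 and 15906466 expected counts. The PCF11 transcript stood at 648 CPM ± 32.3 in Pcf11-13 and 67.4 ± 2.56 in Pcf11-DNL, against 84.7 ± 3.05 in wild type (SD, n = 3 each). Wild type replicate 1 stood apart, with a chi-square per degree of freedom of 10.7 and 10.1 against the other wild type libraries, where the other replicate pairs lay between 2.5 and 4.71, so the main results are also given without it. Levels are given as CPM, each gene's share of its own library after TMM scaling, which means that less RNA from a gene in each cell and fewer cells making it cannot be told apart.

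Which part of each row belongs to its own gene depends on sequence. In the R64 reference, 8 of the 10 genes (COS1 to COS8) share at least 82.3% of their coding bases, while COS10 and COS12 share 57.3% to 63.1% with any of the others. At 95% identity the family has 2 tight groups, COS1 to COS4 and COS5 with COS7. The COS2 and COS3 coding sequences are the same in all 1140 bases, and so are 1671 bases before them and 53 after. Of the 100-base windows of COS2 and COS3, 0% occur once in the genome, against 42.4% for COS5, 49.4% for COS1, 52.1% for COS7, 54.4% for COS4, 84.5% for COS6, 99.8% for COS8 and 100% for COS10 and COS12. At the read length of 150 bases these shares were 0% for COS2 and COS3, 64.8% for COS1, 72.4% for COS5, 72.3% for COS7, 74.2% for COS4 and 94.2% for COS6. The deposited values show this sharing, since they were fractional, which is how shared reads show in expected counts, in 9 of 9 libraries for COS1, COS2, COS5, COS6 and COS7, in 8 for COS3 and COS4, in 1 for COS8, and in 0 for COS10 and COS12.

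**Figure D1:**
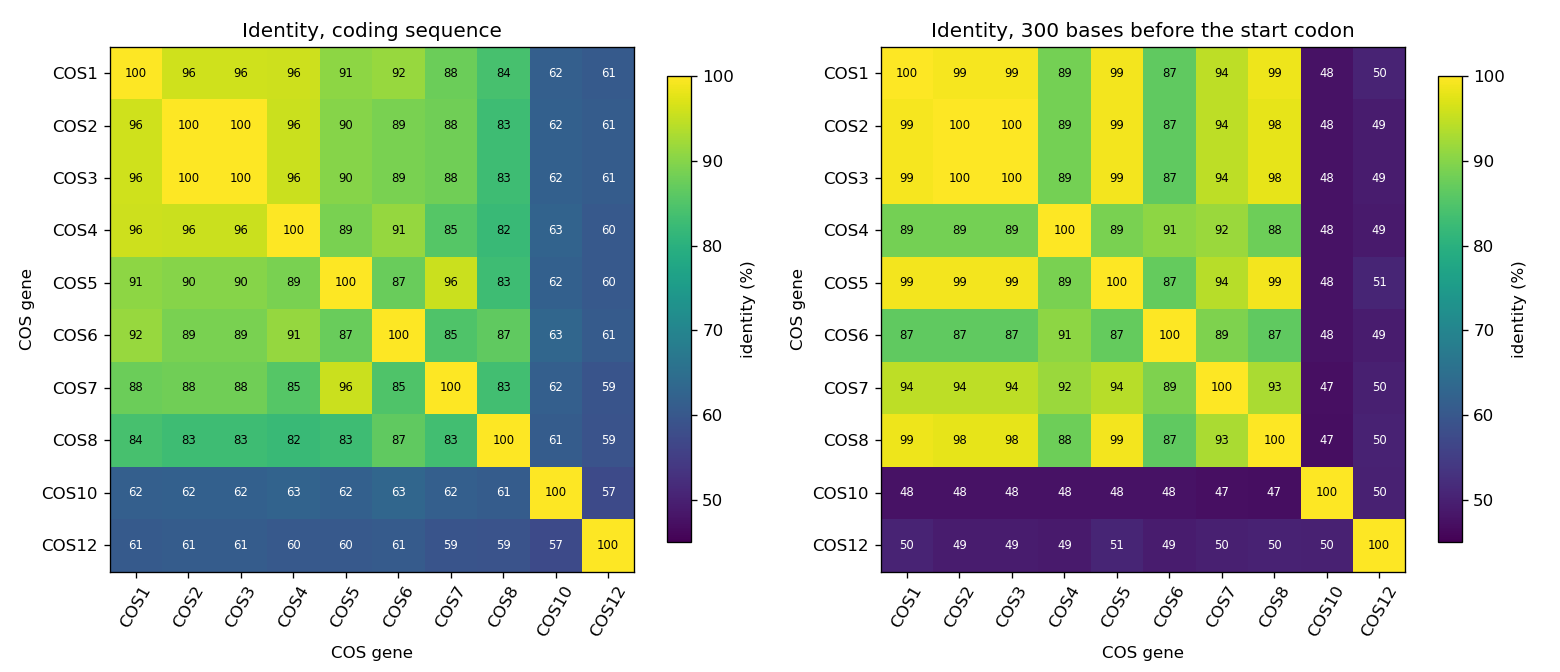
Percent identity between the 10 COS genes in the R64 reference, for the coding sequence (left) and the 300 bases before the start codon (right), each cell 1 pair of genes. COS1 to COS8 form a block above 82% in the coding sequence. Before the start codon COS4 and COS6 are the least like the other 6 members of that block, and COS7 comes next.

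COS6 (YGR295C, chrVII:1081584-1082729, minus strand) and COS4 (YFL062W, chrVI:6426-7565, plus strand) are the members whose levels differ most between groups, and their sequence shows how far their reads can be told from those of the rest. The following stretches come from the RefSeq R64 genome, which is the same assembly as the sacCer3 build in the submitters' processing notes. The coding stretch is the 90 bases (185 to 274 of the COS2 coding sequence) where COS4 and COS2 differ most densely, and capitals mark bases that differ from COS2.
COS6 (chrVII:1082456-1082545, minus): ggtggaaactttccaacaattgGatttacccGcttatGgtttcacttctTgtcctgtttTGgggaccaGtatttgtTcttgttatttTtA
COS4 (chrVI:6610-6699, plus): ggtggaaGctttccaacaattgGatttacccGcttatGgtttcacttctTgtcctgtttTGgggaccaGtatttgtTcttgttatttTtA
COS2 (chrII:811206-811295, minus): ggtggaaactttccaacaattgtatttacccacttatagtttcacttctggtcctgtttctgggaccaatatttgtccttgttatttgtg
COS4 differs from COS2 at 11 bases of this stretch, and COS6 has the same base at 10 of them. COS1 and COS3 read like COS2 here. Over the whole coding sequence COS4 and COS6 are each closest to COS1, at 95.81% and 91.52% identity. They are 91.34% identical to each other. Over its whole length COS4 differs from COS2 at 49 bases. Of its 1041 windows of 100 bases, 279 also occur in COS2 and COS3, 131 in COS1, 85 in COS5, 62 in COS6 and 26 in COS7. Of the 1047 windows of COS6, 108 also occur in COS1, 62 in COS4, 1 in COS5 and 0 in COS2 or COS3.

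In some of its bases the region before the start codon sets COS4 and COS6 apart from COS1 to COS3, COS5, COS7 and COS8. The stretch printed runs from base 180 to base 64 before the start codon and ends in the TATA element. It is shown because it holds bases that COS4 and COS6 share and COS1 lacks. Capitals mark bases that differ from COS1 in the alignment, while missing bases are not marked. COS4 and COS6 lack several bases that COS1 has just before the TATA element, so their stretches begin further upstream in the alignment.
COS6 (chrVII:1082793-1082909, minus): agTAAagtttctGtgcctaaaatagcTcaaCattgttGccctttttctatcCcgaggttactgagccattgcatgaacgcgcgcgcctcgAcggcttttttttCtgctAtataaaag
COS4 (chrVI:6246-6362, plus): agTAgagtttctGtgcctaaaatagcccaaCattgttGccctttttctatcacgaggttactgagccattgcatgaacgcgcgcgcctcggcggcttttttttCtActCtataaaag
COS1 (chrXIV:8150-8266, plus): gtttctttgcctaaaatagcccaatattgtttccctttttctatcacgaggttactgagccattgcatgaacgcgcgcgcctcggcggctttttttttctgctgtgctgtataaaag
COS4 and COS6 share 6 of the capitals. In an alignment of the 300 bases before the start codons of COS1 to COS8, which has 307 columns, 250 columns were the same in all 8 genes. COS4 and COS6 shared a state that the other 6 lack in 9 columns, in 1 of them a missing base. Only columns in which the other 6 are alike enter this count, so it does not cover every base missing from both. The next highest count for any pair was 1. COS4 differed alone in 9 columns and COS6 in 15. The other 6 genes were 93.1% to 100% identical to each other over this region, and COS4 or COS6 was 86.6% to 91.7% identical to them. COS4 and COS6 were 90.7% identical to each other, within that range, so over the whole region they are not a close pair. COS4 was closer to COS7, at 91.7%. COS7 lies between, since it was 93.1% to 94.4% identical to COS1 to COS3, COS5 and COS8, which were 98.0% to 100% identical to each other. The letters TATAAA, on either strand of the 250 bases before the start codon, occur in 9 of the 10 COS genes and in 43.4% of 6000 genes. The letters AGGGG, searched likewise, occur in 8 of the 10 (COS1 to COS8) and in 18.8% of all. The regions before COS1 to COS8 are near-copies, so their matches to either motif are not separate observations. A match describes the sequence and is not a binding site.

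COS6 was the most abundant member in every library, also per kilobase, and its level was ordered by group. It stood at 383, 397 and 401 CPM in Pcf11-13, at 222, 223 and 228 CPM in Pcf11-DNL, and at 156, 162 and 154 CPM in wild type. The 3 groups did not overlap. Its log2 fold change was 1.32 ± 0.04 (SE; 2.50-fold) in Pcf11-13 against wild type, 0.51 ± 0.04 (1.43-fold) in Pcf11-DNL against wild type, and -0.81 ± 0.04 in Pcf11-DNL against Pcf11-13. In Pcf11-DNL, where it was tested, COS6 rose (edgeR's quasi-likelihood test, adjusted p = 6.28e-07). Without wild type replicate 1 the log2 fold changes were 1.32 and 0.51.

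COS4 had the lowest mean level of the 9 measured members in each group and the largest ratio in Pcf11-13. It stood at 17.6, 19.0 and 17.1 CPM in Pcf11-13, at 3.39, 4.33 and 4.86 CPM in Pcf11-DNL, and at 1.95, 2.96 and 3.53 CPM in wild type. Every Pcf11-13 library lay above every other library, while Pcf11-DNL and wild type overlapped. The log2 fold change was 2.64 ± 0.17 (6.22-fold) in Pcf11-13 against wild type and 2.46 without wild type replicate 1. In Pcf11-DNL against wild type it was 0.54 ± 0.20, which did not pass the test (adjusted p = 0.0908, edgeR). That p was 0.0430 without wild type replicate 3, the lowest of 19 alternatives, whose highest was 0.264. In Pcf11-DNL against Pcf11-13 the log2 fold change was -2.09 ± 0.16.

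Since COS4 shares windows with the abundant COS6, its counts were set beside those of COS6. They were 4.60%, 4.78% and 4.26% of the COS6 counts in Pcf11-13, 1.53%, 1.94% and 2.13% in Pcf11-DNL, while wild type had 1.25%, 1.83% and 2.29%. The share of COS4 was thus higher in Pcf11-13 than in each library of the other groups, whereas those of Pcf11-DNL and wild type overlapped. COS4 shares more windows with COS2 and COS3 (279) and with COS1 (131) than with COS6 (62). The sum of COS1 to COS4 does not depend on how reads shared among them were divided. It was 197 ± 10.05 CPM in Pcf11-13 and 190.5 ± 7.53 in Pcf11-DNL, against 179.6 ± 8.71 in wild type (SD, n = 3 each), and the groups overlapped. COS4 held 17.9 CPM of this sum in Pcf11-13 and 2.81 in wild type. How much of the COS4 row comes from reads of other copies was not tested.

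**Figure D2:**
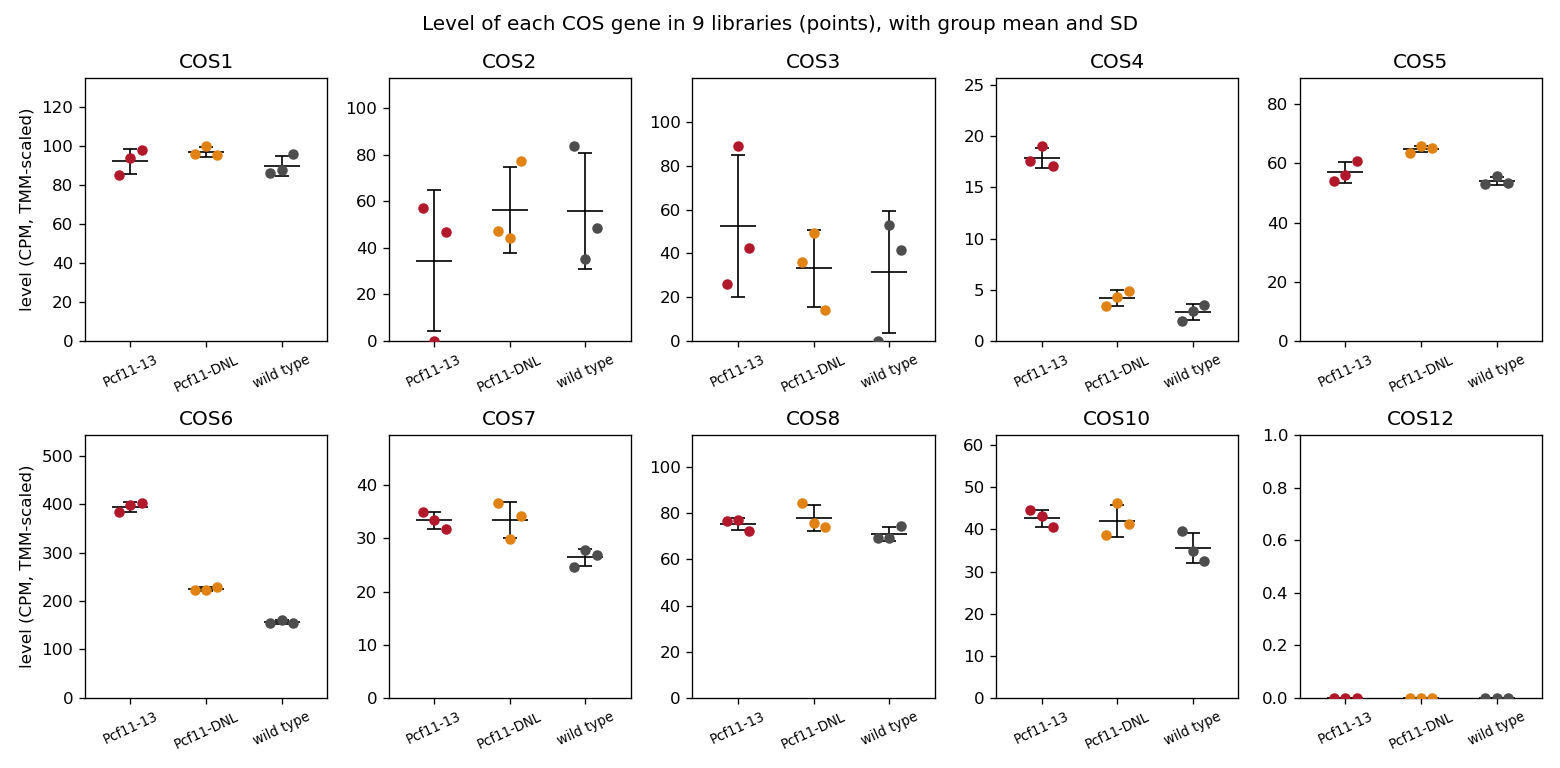
Level of each COS gene (CPM after TMM scaling, vertical axis starting at 0, scale set per gene) in the 3 libraries of Pcf11-13, Pcf11-DNL and wild type, with group means and SDs. COS6 separates all groups, COS4 separates Pcf11-13 from the others, and the COS2 and COS3 points scatter within groups.

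COS2 (YBR302C, chrII:810340-811479, minus strand) and COS3 (YML132W, chrXIII:7244-8383, plus strand) cannot be measured apart. Cos3 is known for its interaction with the sodium-proton antiporter Nha1. The COS2 row stood at 56.9, 0.0590 and 46.6 CPM in Pcf11-13, at 47.1, 44.3 and 77.4 CPM in Pcf11-DNL, and at 83.5, 35.4 and 48.3 CPM in wild type. The COS3 row stood at 25.9, 88.9 and 42.7 CPM in Pcf11-13, at 36.0, 49.2 and 14.3 CPM in Pcf11-DNL, and at 0, 53.1 and 41.4 CPM in wild type. Where one row was high, the other was low in the same library.

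COS2 took 68.7%, 0.0665% and 52.2% of the pair's counts in Pcf11-13, 56.7%, 47.4% and 84.4% in Pcf11-DNL, while wild type had 100%, 40.0% and 53.8%. Taken as rows, COS2 had a log2 fold change of -0.70 ± 0.58 and COS3 of 0.70 ± 0.60 in Pcf11-13 against wild type. In Pcf11-DNL against wild type the rows stood at 0.03 ± 0.55 and 0.03 ± 0.62 (adjusted p = 0.981 for each, edgeR).

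The sum of the pair varied much less. It was 82.9, 88.9 and 89.3 CPM in Pcf11-13, 83.1, 93.5 and 91.7 CPM in Pcf11-DNL, and 83.5, 88.4 and 89.7 CPM in wild type. The libraries of all 3 groups overlapped. The ratio of the group means was 0.998 in Pcf11-13 and 1.03 in Pcf11-DNL, each against wild type, with a standard error of 0.05 on the log2 scale when the rows were summed before the fit.

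**Figure D3:**
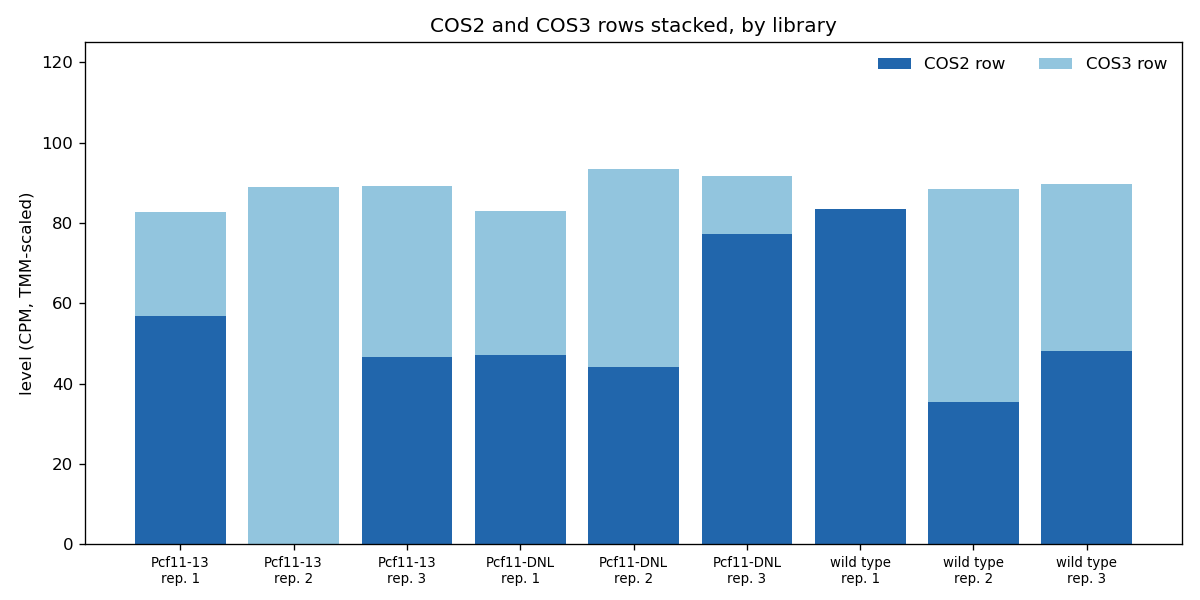
COS2 and COS3 rows stacked for each library (CPM after TMM scaling), in the order Pcf11-13, Pcf11-DNL and wild type. The total lies between 82.9 and 93.5 CPM, while the COS2 part ranges from 0.0665% to 100% of it.

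COS5 (YJR161C, chrX:742848-743999, minus strand), a member studied for its part in sorting cargo to the vacuole, and COS7 (YDL248W, chrIV:1802-2953, plus strand) are 95.57% identical. COS5 stood at 54.1, 56.0 and 60.9 CPM in Pcf11-13, at 63.7, 65.7 and 65.1 CPM in Pcf11-DNL, and at 53.0, 55.6 and 53.4 CPM in wild type. The Pcf11-DNL libraries lay above all others, and Pcf11-13 overlapped wild type. COS5 rose by 0.26 ± 0.05 on the log2 scale in Pcf11-DNL against wild type (1.20-fold, adjusted p = 0.00326, edgeR). Its log2 fold change was 0.08 ± 0.05 in Pcf11-13 against wild type and 0.19 ± 0.05 in Pcf11-DNL against Pcf11-13, the last becoming 0.02 with library totals in place of TMM.

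COS7 stood at 35.0, 33.4 and 31.8 CPM in Pcf11-13, at 36.6, 29.9 and 34.2 CPM in Pcf11-DNL, and at 24.7, 27.8 and 26.9 CPM in wild type. Both mutant groups lay above wild type and overlapped each other. COS7 rose by 0.34 ± 0.08 in Pcf11-DNL (1.27-fold, adjusted p = 0.0101, edgeR), a call that was lost without Pcf11-DNL replicate 1 (adjusted p = 0.0625, the highest of 19 alternatives, the lowest being 0.00397). In Pcf11-13 against wild type its log2 fold change was 0.33 ± 0.08. Without wild type replicate 1 the log2 fold changes in Pcf11-DNL were 0.25 for COS5 and 0.30 for COS7, both past the test. The sum of COS5 and COS7, which does not depend on how their shared reads were divided between them, was 90.4 ± 2.02 CPM in Pcf11-13 and 98.4 ± 2.45 in Pcf11-DNL, against 80.4 ± 2.88 in wild type (SD, n = 3 each).

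COS1 (YNL336W, chrXIV:8330-9475, plus strand) stood at 85.0, 93.5 and 97.7 CPM in Pcf11-13, at 96.0, 99.6 and 94.995 CPM in Pcf11-DNL, and at 85.9, 87.5 and 95.5 CPM in wild type, with overlap between all groups. Its log2 fold changes against wild type were 0.03 ± 0.06 in Pcf11-13 and 0.11 ± 0.06 in Pcf11-DNL (adjusted p = 0.210, edgeR).

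COS8 (YHL048W, chrVIII:6401-7546, plus strand), whose product has been placed in the nuclear membrane, stood at 76.4, 77.2 and 72.2 CPM in Pcf11-13, at 84.2, 75.7 and 73.9 CPM in Pcf11-DNL, and at 69.2, 69.2 and 74.5 CPM in wild type. These groups overlapped too. Its log2 fold changes against wild type were 0.08 ± 0.06 in Pcf11-13 and 0.13 ± 0.06 in Pcf11-DNL (adjusted p = 0.122, edgeR).

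COS10 (YNR075W, chrXIV:779916-781040, plus strand) is the measured member least like the rest and had only whole counts. It stood at 44.5, 43.1 and 40.5 CPM in Pcf11-13, at 38.7, 46.1 and 41.3 CPM in Pcf11-DNL, and at 39.6, 35.0 and 32.5 CPM in wild type. Pcf11-13 lay above wild type by a small margin, and Pcf11-DNL overlapped wild type. The log2 fold change in Pcf11-13 against wild type was 0.27 ± 0.08. It was 0.20 without wild type replicate 3 and 0.34 without wild type replicate 1. In Pcf11-DNL against wild type it was 0.24 ± 0.08, which did not pass the test (adjusted p = 0.0559, edgeR). Over 20 alternatives this p ran between 0.0112 and 0.219 and was under the threshold in 6, among them without wild type replicate 1 (0.0112) and without Pcf11-DNL replicate 1 (0.0437).

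COS12 (YGL263W, chrVII:2790-3932, plus strand) had 0 counts in all 9 libraries, which allows a level of up to 0.195 to 0.266 CPM per library (3 counts of the library's total after TMM scaling). Its neighbours toward the centromere were also at or near 0: YGL262W and PAU11 had 0 counts in all libraries, and YGL260W, YPS5 and YGL258W-A had 2, 3 and 4 counts in all 9 together. The next gene inward, VEL1, had 667. By contrast COS10, at another chromosome end, had 4988 counts in all between neighbours at or near 0 on both sides, YNR075C-A with 0 and PAU6 with 1.53 toward the end, and AIF1 with 3 and MAN2 with 4.63 toward the centromere. The chromosome ends of w303 were not analysed here.

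COS9 (YKL219W), a gene of the family outside the 10 with at most 70.34% coding identity to any of them, served for comparison. It stood at 37.2, 34.8 and 34.0 CPM in Pcf11-13, at 32.6, 34.8 and 36.3 CPM in Pcf11-DNL, and at 32.1, 34.2 and 31.7 CPM in wild type. All groups overlapped.

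Per kilobase of coding sequence the wild type levels were ordered COS6 (137 CPM per kb), COS1 (78.2), COS8 (61.9), COS5 (46.9), COS10 (31.7), COS7 (22.9) and COS4 (2.47), leaving aside COS2 and COS3. The order was the same in Pcf11-13 and in Pcf11-DNL, and in none of the 3 groups did the libraries of neighbours in this order overlap.

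The number of members past the adjusted p threshold of 0.05 was set beside the share of all genes called in each comparison. The 9 rows are not all separate measurements, which limits this comparison of shares. COS2 and COS3 have the same coding sequence, and COS5 shares 333 of its 1053 windows with COS7. In Pcf11-13 against wild type 4 of 9 were higher (COS4, COS6, COS7 and COS10) and 0 lower, in a comparison where 66.1% of all 5646 tested genes were called, 35.2% higher and 30.9% lower, and this count rests on the values by which the family was taken up. The same 4 members did not overlap between the groups, as was true of 69.7% of all genes. In Pcf11-DNL against wild type, which shares the wild type libraries, 3 of 9 were higher (COS5, COS6 and COS7) and 0 lower, where 13% of all genes were called, 8.73% higher and 4.3% lower. These 3 did not overlap between the groups, as was true of 32.8% of all genes. The COS5 and COS7 calls are not fully separate observations. Summed before the fit, COS5 and COS7 had a log2 fold change of 0.29 ± 0.05 in Pcf11-DNL against wild type. In Pcf11-DNL against Pcf11-13, which shares the Pcf11-13 libraries by which the family was chosen and is read as description alone, COS5 was higher and COS4 and COS6 lower, where 60.3% of all genes were called, 29.5% higher and 30.9% lower. These 3 did not overlap either, as was true of 67% of all genes. With library totals the median of all genes moved by over 0.2 on the log2 scale in Pcf11-13 against wild type, to 0.25 in place of 0.03. In that comparison 7 members were then higher, where 59.7% of all genes were. The same scaling gave 5 higher members in Pcf11-DNL against wild type, where 12.9% of all genes were higher. In Pcf11-DNL against Pcf11-13 it gave 0 higher and 3 lower members, where 15.4% of all genes were higher and 52.8% lower.

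**Figure D4:**
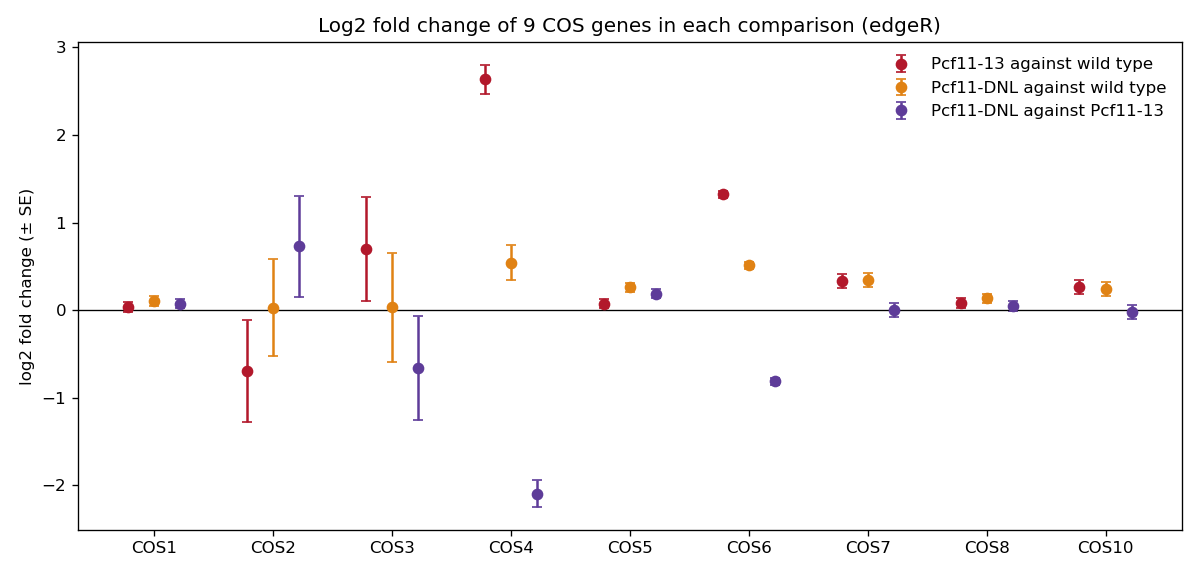
Log2 fold change (± SE, edgeR) of the 9 COS genes past the filter in the 3 comparisons. COS4 and COS6 stand above 0 in Pcf11-13 against wild type and below 0 in Pcf11-DNL against Pcf11-13. COS2 and COS3 have the widest errors.

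As a whole the family held 799 CPM ± 18.1 in Pcf11-13 and 633 ± 5.06 in Pcf11-DNL, against 524 ± 9.13 in wild type (SD, n = 3 each), ratios of 1.53 and 1.21. COS6 made up 49.3% of it in Pcf11-13 and 35.4% in Pcf11-DNL, against 30.0% in wild type. Without COS6 the sum was 405 CPM in Pcf11-13 and 409 CPM in Pcf11-DNL, against 367 CPM in wild type. Without COS6 and COS4 it was 387 CPM in Pcf11-13 and 405 CPM in Pcf11-DNL, against 364 CPM in wild type, so that the ratio to wild type was 1.06 in Pcf11-13 and 1.11 in Pcf11-DNL. Most of the difference between Pcf11-13 and wild type in the family's RNA was therefore in the COS6 row.

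Genes beside the COS genes were tested, since they share the chromosome end. Of 12 tested neighbours 5 were called higher and 0 lower in Pcf11-13, where 35.2% of all genes were higher. In Pcf11-DNL 2 were called higher and 0 lower, where 8.73% of all genes were higher. The 5 include the near-identical pairs DDI2 with DDI3 and MPH2 with MPH3, whose rows are not separate measurements. DDI2, 1976 bases beyond COS1 on the same strand, and DDI3, 1979 bases beyond COS4, encode cyanamide hydratase in near-identical copies (99.85% identity), so their reads are shared. DDI2 rose by 1.49 ± 0.15 in Pcf11-13 (adjusted p = 3.61e-07, edgeR) and by 0.69 ± 0.16 in Pcf11-DNL (adjusted p = 0.00932), each against wild type. DDI3 rose by 1.02 ± 0.22 in Pcf11-13 (adjusted p = 0.000655), and its log2 fold change was -0.02 ± 0.24 in Pcf11-DNL (adjusted p = 0.964). MPH3, a sugar transporter gene 3031 bases from COS5, rose by 0.63 ± 0.07 in Pcf11-13 (adjusted p = 5.06e-07) and by 0.36 ± 0.07 in Pcf11-DNL (adjusted p = 0.00195). Its near-copy MPH2 (98.74% identity), as far from COS7, had a log2 fold change of 1.80 ± 0.68 in Pcf11-13 (adjusted p = 0.0282). The mean level of MPH2 over the 9 libraries was 1.45 CPM, and its reads are shared with MPH3. A gene this low could pass the filter through the group where it is high, so its call is not read as a rise. ARN2, an iron-siderophore transporter gene next to COS8, rose by 0.23 ± 0.06 in Pcf11-13 (adjusted p = 0.00404) and had a log2 fold change of -0.16 ± 0.06 in Pcf11-DNL (adjusted p = 0.109).

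The genes next to COS6 did not pass the test in either mutant. PAU12 had a log2 fold change of 0.08 ± 0.52 in Pcf11-13 (adjusted p = 0.902), at a mean level of 0.597 CPM. YRF1-3, a Y' element helicase gene with near-identical copies, had -1.83 ± 1.05 (adjusted p = 0.134). On the outer side of COS4, YFL064C had -0.53 ± 0.26 (adjusted p = 0.0888). The other neighbours that did not pass in Pcf11-13 were YRF1-6 at -0.18 ± 0.19, PAU24 at 0.10 ± 0.54, YML133C at 0.19 ± 0.08 and YML131W at 0.05 ± 0.07.

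Many other genes near chromosome ends were also higher in Pcf11-13. Of the 247 tested genes within 25 kb of an end, COS genes left out, 127 rose and 32 fell in Pcf11-13 against wild type, and the median log2 fold change was 0.27, against 0.03 for all genes tested. With library totals 172 rose and 18 fell. With TMM scaling, of the 73 genes within 10 kb, 30 rose and 5 fell, shares of 41.1% and 6.85%, with a median of 0.22. Of the 174 genes at 10 to 25 kb, 97 rose and 27 fell, shares of 55.75% and 15.5%, with a median of 0.33. Of all genes tested 35.2% were higher and 30.9% lower. Of the 5025 genes over 50 kb from an end, 1720 rose and 1607 fell, with a median of 0.02, and with library totals 2958 rose and 790 fell. In Pcf11-DNL against wild type 34 of the 247 genes rose and 17 fell (median 0.06), against 428 and 206 of the 5025 (median -0.0009).

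**Figure D5:**
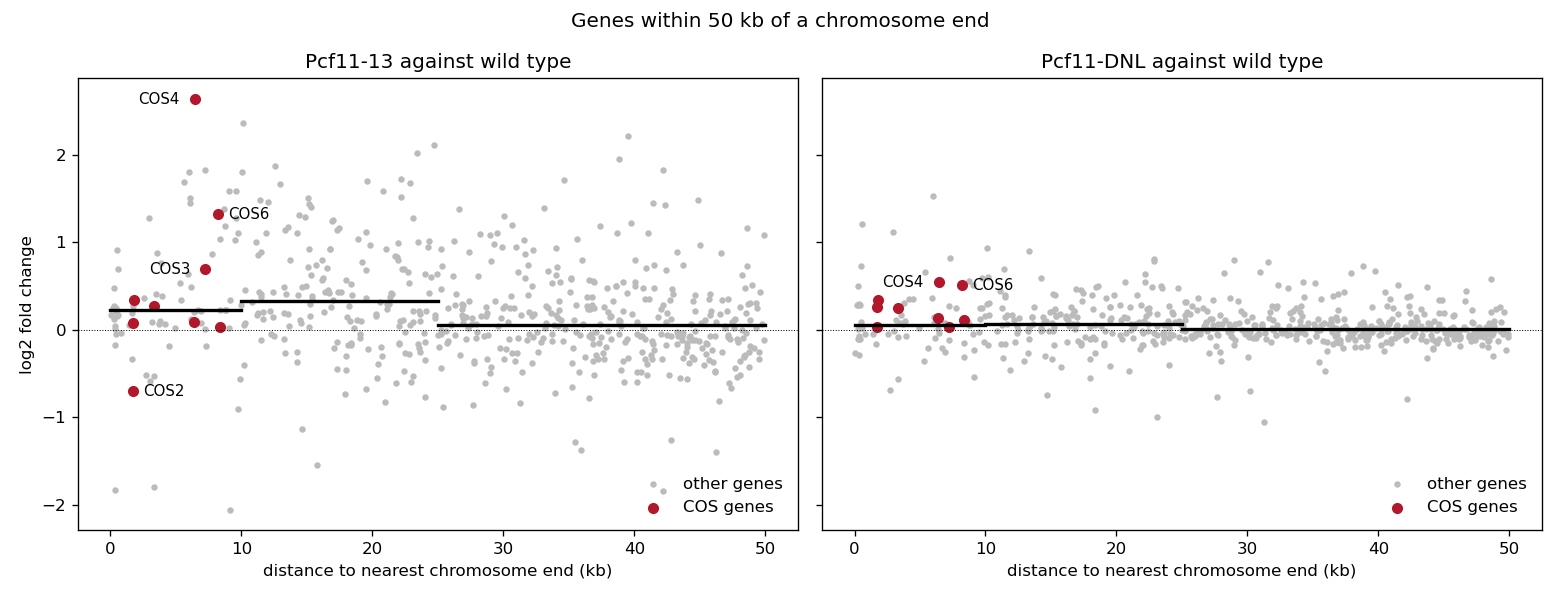
Log2 fold change of every tested gene within 50 kb of a chromosome end against its distance to that end (kb), in Pcf11-13 (left) and Pcf11-DNL (right), each against wild type. COS genes are red and the other genes grey, and black lines are medians of the other genes in 3 distance classes. COS4 and COS6 lie above the median line in both panels.

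The 24 PAU genes, seripauperin cell wall genes of the same chromosome ends, had 9 tested members. Of these, 4 rose in Pcf11-13 and 0 fell, where 35.2% of all genes were higher. The filter bears on this count, since low genes could pass it through the group where they are high, as PAU5 at 1.40 ± 0.25 CPM in Pcf11-13 against 0.49 ± 0.07 in wild type. PAU23 stood at 3.06 ± 0.28 CPM in Pcf11-13 against 1.19 ± 0.26 in wild type (adjusted p = 0.000288, edgeR). In Pcf11-DNL 0 of the 9 passed. Of the 8 Y' helicase rows 3 rose in Pcf11-13, but these 3 hold the same values and are 1 measurement (YRF1-1, 138 ± 9.96 CPM in Pcf11-13 against 116 ± 4.14 in wild type, adjusted p = 0.000492). The same 3 rows rose in Pcf11-DNL (142 ± 1.31 CPM, adjusted p = 0.00155), and YRF1-4 fell there by 0.25 ± 0.05 (adjusted p = 0.0016). The DUP240 genes are the nearest relatives outside the COS family. Of 9 tested, DFP1 rose and UIP3 fell in Pcf11-13, and DFP3 and KTD1, a factor in resistance to the K28 killer toxin, rose in Pcf11-DNL (KTD1 51.1 ± 1.49 CPM in Pcf11-DNL against 40.4 ± 1.08 in wild type, adjusted p = 0.000606). The DUP240 median in Pcf11-13 was -0.06, with 11.1% of the tested genes in each direction, beside 35.2% and 30.9% of all genes. In Pcf11-DNL 22.2% of the tested DUP240 genes were higher, beside 8.73% of all genes. With library totals 4 rose and 0 fell in Pcf11-13, where 59.7% of all genes were higher and 15.2% lower. The median was then 0.16, and the fall of UIP3 depends on the scaling.

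Among genes of the pathway in which Cos proteins act, 8 of 20 ESCRT genes, whose products bend and cut endosomal membranes, rose in Pcf11-13 and 1 fell, with a median log2 fold change of 0.12. The share that rose, 40%, lies near the 35.2% of all genes that were higher. With library totals 15 rose and 0 fell, where 59.7% of all genes were higher and 15.2% lower. HSE1, part of the first complex to meet ubiquitinated cargo, stood at 104 ± 2.04 CPM in Pcf11-13 against 65.6 ± 1.99 in wild type (adjusted p = 6.77e-09, edgeR). VPS60 fell by 0.33 ± 0.06 (adjusted p = 0.000283, edgeR), a call that was lost with library totals. Of 18 genes for the ubiquitin ligase Rsp5 and its adaptors, 10 rose and 2 fell (median 0.18), shares of 55.6% and 11.1% beside 35.2% and 30.9% of all genes. With library totals 16 rose and 0 fell, beside the same 59.7% and 15.2%. ECM21, CSR2, ROG3 and ROD1, adaptors of the arrestin type, were among those that rose, by 0.64, 0.61, 0.47 and 0.36 on the log2 scale (the highest adjusted p of the 4 was 4.45e-05). In Pcf11-DNL 2 genes of each list rose and 0 fell, a share of 10% and 11.1%, near the 8.73% of all genes. Of the Rsp5 list these were ROG3, which rose by 0.47 ± 0.06 (adjusted p = 0.000119), and EAR1, which rose by 0.17 ± 0.04 (adjusted p = 0.0152). Of the ESCRT list they were SNF8, which rose by 0.29 ± 0.08 (adjusted p = 0.0292), and DID2 (adjusted p = 0.0404). DID2 stood at 11.3, 0 and 1.28 CPM in Pcf11-DNL, against 0, 0 and 0.309 CPM in wild type, so the groups overlap and Pcf11-DNL replicate 1 holds most of its level. Without Pcf11-DNL replicate 1, wild type replicate 1 or wild type replicate 3, 0 of the 20 ESCRT genes rose in Pcf11-DNL.

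Of 19 genes for telomere silencing and repression, 6 rose and 8 fell in Pcf11-13 (11 and 3 with library totals), shares of 31.6% and 42.1% beside 35.2% and 30.9% of all genes. SIR2 stood at 61.0 ± 2.74 CPM in Pcf11-13 against 91.2 ± 11.3 in wild type (adjusted p = 2.94e-06, edgeR). RAP1, which recruits the Sir proteins, fell by 0.43 ± 0.05 (adjusted p = 1.52e-06). HDA2, of a histone deacetylase complex, rose by 0.66 ± 0.04 in Pcf11-13 (adjusted p = 2.75e-09) and by 0.32 ± 0.04 in Pcf11-DNL (adjusted p = 0.000176), and RIF2, a telomere protein, by 0.59 ± 0.08 in Pcf11-13 (adjusted p = 4.25e-06) and by 0.53 ± 0.08 in Pcf11-DNL (adjusted p = 0.000188). Of 17 genes for NAD synthesis and salvage, 5 rose and 8 fell in Pcf11-13 (7 and 3 with library totals), shares of 29.4% and 47.1% beside the same background, and the median of -0.14 became 0.08 with library totals. PNC1, the nicotinamidase, stood at 151 ± 15.9 CPM in Pcf11-13 against 65.9 ± 7.27 in wild type (adjusted p = 2.82e-09), and BNA2, of the first step from tryptophan, at 46.3 ± 0.821 against 23.3 ± 1.69 (adjusted p = 3.07e-09). NPT1 and the nicotinic acid transporter gene TNA1 fell by 0.40 ± 0.04 and 0.46 ± 0.05 (adjusted p = 3.61e-07 and 8.93e-07). In Pcf11-DNL 2 genes of each of these lists rose and 2 fell, shares of 10.5% of the silencing list and 11.8% of the NAD list in each direction, where 8.73% of all genes were higher and 4.3% lower.

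Over the 9 libraries, the genes whose log2 CPM followed the summed COS level most closely, of 5367 genes compared, were USE1 (Pearson r = 0.997), CTO1 (0.997), YDR042C (0.996), SNG1 (0.995) and PET8 (0.994), and 13 genes had r above 0.99. USE1 encodes an endoplasmic reticulum SNARE. The points are 3 groups of 3 libraries, so the values describe the order of the groups, and the sum is led by COS6. USE1, CTO1 and YDR042C had log2 fold changes of 4.02, 4.34 and 3.89 in Pcf11-13 and of 1.68, 2.05 and 1.71 in Pcf11-DNL, each against wild type. SNG1 had 1.14 and 0.54, close to the 1.32 and 0.51 of COS6, and PET8 had 0.47 and 0.21.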

How the data were processed

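RNA from 9 yeast cultures was selected for poly(A) and sequenced as pairs of 150 bases, per the labels' protocols. The authors deposited 1 table of expected counts (estimated counts per gene) with no normalization, and its values were rounded here to whole numbers. Per the submitters' processing notes the build was sacCer3 and the tools included STAR 2.6.1b, RSEM 1.3, Trimmomatic 0.38, FastQC and DESeq2 1.26.0. Neither the role of each tool, the annotation, the strand setting nor how reads that match several genes were divided is given in the sources used here. Of all values 10.8% were not whole (tolerance 0.001).

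A filter on low counts (filterByExpr, minimum count 10) left 5646 of 5928 genes. Of all genes 5919 matched the R64 annotation by systematic name. Libraries were scaled with TMM, and edgeR 4.0.16 in R 4.3.3 fitted 1 model of the 3 groups over all 9 libraries. Every adjusted p comes from its two-sided quasi-likelihood test, adjusted by Benjamini-Hochberg over all genes tested. The biological coefficient of variation was 4.59%. Floors of 3 counts cover counting error only. The fits were tested on simulated data with known changes.

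The members and lists were chosen with earlier results of these data known. The genes named were all COS genes and COS9, PCF11, the nearest gene on each side of a COS gene, the members of each list with the smallest adjusted p or the largest change, and the 5 genes most correlated with the summed COS level at a mean of at least 5 CPM. Genes named at the ends of chromosomes VII and XIV beyond these were chosen after their values were seen. Alternatives were DESeq2 size factors, library totals, the DESeq2 Wald test (1.42.0), no filter, a minimum mean of 5 CPM, limma-voom (limma 3.58.1), the 6 libraries compared alone, replicate number as a block, each library left out, and near-identical genes (95% identity) summed. Added after the data were seen were COS2 and COS3 summed, and the block within the 6 libraries compared.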

Additional observations from a re-analysis of the deposited data

How the results depend on the processing

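In Pcf11-DNL against wild type COS6 passed in all 20 alternatives, COS5 in all 19 and COS7 in 18 of 19. In Pcf11-13 against wild type, given as description, the log2 fold change of COS6 lay between 1.302 and 1.54 and that of COS4 between 2.46 and 2.85. With library totals 7 COS genes were higher in Pcf11-13 and 5 in Pcf11-DNL, each against wild type, and 0 were higher in Pcf11-DNL against Pcf11-13. Of all genes 59.7%, 12.9% and 15.4% were higher in these comparisons under that scaling. With limma-voom 1 COS gene was lower in Pcf11-13 against wild type and 2 were higher in Pcf11-DNL against Pcf11-13. In both cases the added gene is COS2, whose row held 0.91 counts in 1 library. Of all 5646 tested genes limma-voom called 1746 lower in the first of these comparisons and 1669 higher in the second. With near-identical genes summed, 1 was lower in Pcf11-DNL against Pcf11-13, because COS4 then stands in a row with COS1, COS2 and COS3. Of all 5642 genes tested in that fit 1731 were lower. Leaving out 1 library gave 3 to 4 higher in Pcf11-13 and in Pcf11-DNL against wild type. Of the 5652 to 5659 genes then tested, 1814 to 1995 were higher in Pcf11-13 and 354 to 473 in Pcf11-DNL. In Pcf11-DNL against Pcf11-13 leaving out 1 library left 1 COS gene higher and 2 lower each time. Of all genes 1465 to 1754 were higher and 1519 to 1839 lower there.

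Same-numbered libraries of Pcf11-13 and wild type had residual correlations of 0.321, 0.207 and 0.0816, the last below the minimum of 0.1 set for pairing. The labels state no pairing, so the samples were taken to share only a number. Each library nevertheless correlated best with its own number (different numbers between -0.312 and 0.0727), a hint from the data and not from the design. With the replicate block in the fit of all 9 libraries 4 COS genes were higher in each mutant against wild type. Of all 5646 tested genes 2025 were then higher in Pcf11-13 and 527 in Pcf11-DNL. With the block in the 6 libraries compared, 1 was lower in Pcf11-13 against wild type (COS2, -0.94), and COS3 passed at 0.84. Of all 5637 genes tested in that fit 1996 were higher and 1851 lower. Rows that share all their sequence limit COS2 and COS3 at any depth. Counts below 60 in wild type limit COS4.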
